A study of Homo sapiens with 6 samples.

Results

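The genes described here encode eukaryotic translation initiation factors. They are the genes whose symbol starts with EIF and a digit from 1 to 6, without the eIF2 kinases (EIF2AK) and the eIF4E-binding proteins (EIF4EBP). There were 48 such genes among the 19421 analysed, 45 that encode proteins or protein isoforms and 3 antisense or divergent RNAs named after a neighbouring factor gene (EIF3J-AS1, EIF1B-AS1 and EIF1AX-AS1). The rule that picks the members uses gene names only, and the choice of this family was made with earlier results of these data known. RNA was sequenced from A431, a human squamous carcinoma cell line with many extra copies of the EGFR gene. The 6 samples fall into 2 groups, 3 with a control shRNA (shCONTROL) and 3 with an shRNA directed at ARID1A (shARID1A). ARID1A encodes a large DNA-binding subunit that defines one class of BAF chromatin remodelling complexes. All samples were grown in DMEM with 10% FBS, and the labels name neither the shRNA sequences nor how many different shRNAs were used. Nor do they say that replicates came from different cultures; the p-values therefore describe the spread among these 6 samples, which may be technical. Between 31658040 and 36453744 reads were assigned to genes per sample.

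Initiation factors bring the initiator tRNA, the small ribosomal subunit and the capped mRNA together and release themselves when the large subunit joins. eIF2 carries the initiator tRNA as a complex with GTP, and eIF2B recharges it, the step that the integrated stress response shuts down. eIF3 is a large scaffold on the small subunit, and eIF4F, made of the cap-binding protein eIF4E, the scaffold eIF4G and the helicase eIF4A, recruits the mRNA. Several of these factors are much studied in carcinomas, where signalling through mTORC1 and the 4E-binding proteins sets how much eIF4E is free to bind the cap.

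ARID1A (gene ID 8289) checks the labels. It stood at 22.8, 22.8 and 23.8 FPKM with the control shRNA and at 6.70, 7.62 and 7.31 FPKM with its own shRNA. The log2 fold change was -1.55 (limma, adjusted p = 0.000187), and the exact permutation p (two-sided) was 0.1, as low as groups of 3 can reach. Of 8 squamous epithelial markers, 7 had a mean of at least 1 FPKM. KRT17 was the highest of them at 1037 FPKM, and KRT14, a defining basal keratin, was the exception at 0.508 FPKM. Of 6 fibroblast markers 1 passed that level (COL1A1, 2.60 FPKM), of 4 leukocyte markers with values 1 (CD68, 13.0 FPKM) and of 3 endothelial markers 0. All fold changes below are shARID1A minus shCONTROL differences of mean log2(FPKM + 1), which understates changes of genes with low FPKM. FPKM counts fragments or reads relative to gene length and to each sample's assigned reads. The test was limma on all 11599 genes whose mean reached 1 FPKM, and p-values were adjusted over all of them (Benjamini-Hochberg), with a threshold of 0.05. Where values of both groups follow each other, the shCONTROL samples come first, in the order of replicates 1 to 3, and ± is the SD of 3 samples. In bulk RNA, less RNA per cell and fewer cells with the RNA cannot be told apart.

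Initiation factor mRNAs differed little between the groups. Of the 48 genes 43 were tested, 1 of them rose (the scaffold EIF4G2) and 1 fell (the noncoding EIF3J-AS1). That is 4.65% of the members tested, while 16.8% of all genes tested passed the same threshold, 5.85% higher and 10.9% lower. Both calls lay close to the threshold and each depended on the setting, as given below for each. At an unadjusted p under 0.05 there were 7 members (16.3%), against 33.9% of all genes. With voom 4 members rose (9.3%) and 0 fell, where 9.8% and 7.85% of all genes did. With the replicate number as a block 0 members rose and 2 fell (EIF2B2 and EIF3J-AS1), beside 8.12% and 15.5% of all genes. Of all calls 34.9% were higher, a share that the scaling moved, to 53.3% after quantile normalization, 55.5% with voom and 52.9% after adjustment for gene length. For the 42 protein-coding members tested, the 95% intervals of the log2 fold change reached from -0.65 (lower bound of EIF1B) to 0.59 (upper bound of EIF5AL1), so none held a 2-fold change, a log2 change of 1, in either direction on this scale. The largest absolute log2 fold change among the 43 was 0.48 and the median of the absolute values was 0.14, against a median of 0.21 over all genes tested, of which 13.7% differed by at least 0.5. Among the 720 genes at or above 86.3 FPKM, the median level of the members, 17.4% passed the threshold and the median absolute log2 fold change was 0.17.

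**Figure D1:**
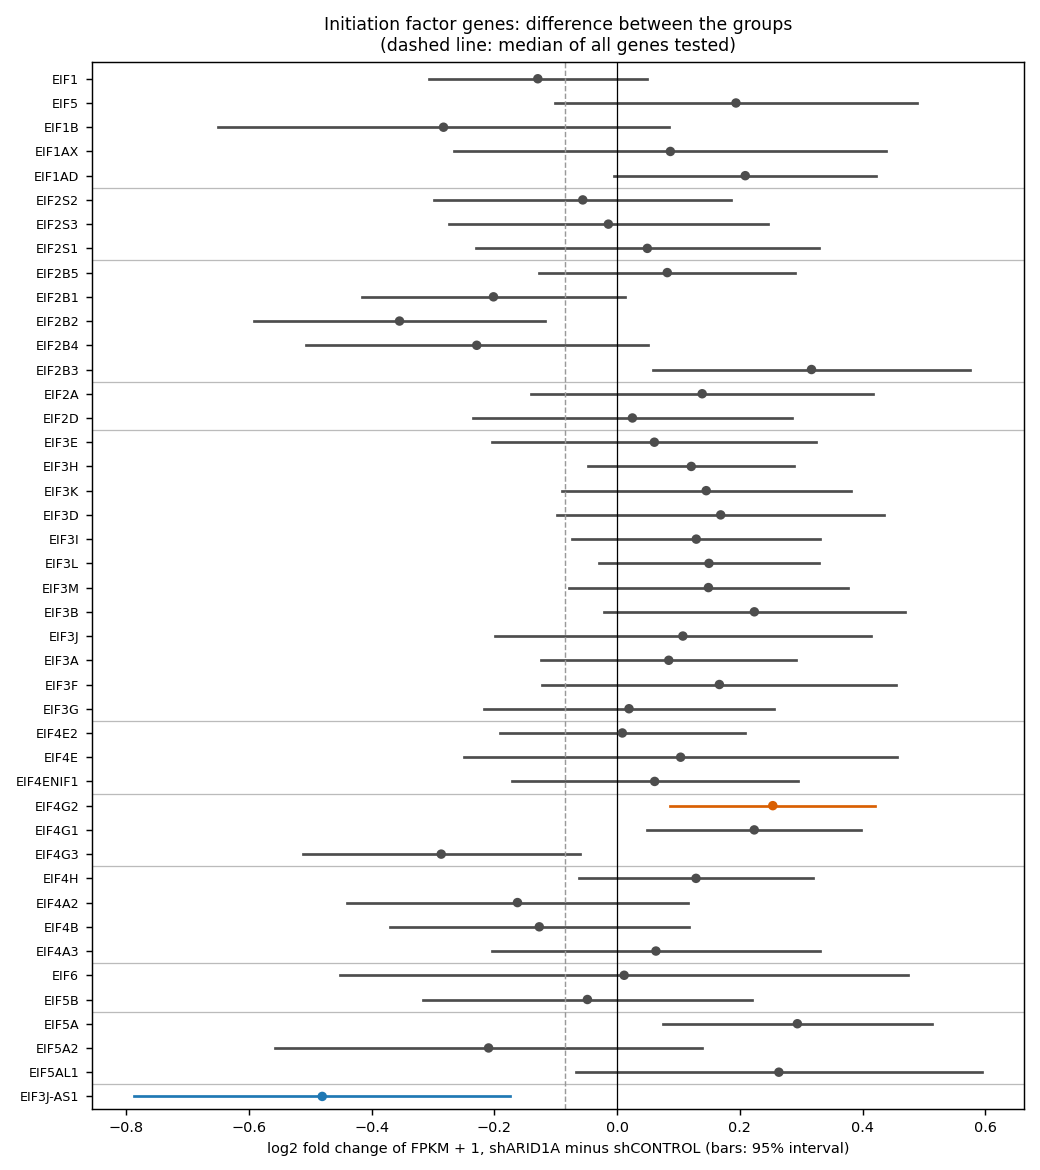
Log2 fold change of FPKM + 1 (shARID1A minus shCONTROL) for the 43 initiation factor genes tested, with 95% intervals from limma, grouped by role and ordered by mean level within each group. Orange marks the 1 gene called higher (EIF4G2), blue the 1 called lower (EIF3J-AS1), and the dashed line the median of all genes tested, -0.08.

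The direction of the small differences was not evenly spread. Of the 43 members, 30 had a log2 fold change above 0 (69.8%), as did 38.1% of all genes tested. The median was 0.08 for the members and -0.08 for all genes. The background moved with the scaling. The median of all genes was -0.003 after quantile normalization, 0.01 with voom and -0.003 after length adjustment, where that of the members was 0.08, 0.19 and 0.16. The share of 38.1% is that of the main fit and was not computed for the other settings. The members also had higher levels, with a median of 86.3 FPKM against 10.5 FPKM over all genes tested. The share above 0 among genes of similar level was not computed. Over the 20 settings run, from 24 to 33 of these 43 members were above 0, or 29 of 42 with a minimum of 5 FPKM. The sign was kept in every setting for 30 of the 43. The groups did not overlap for 13 members, 8 higher and 5 lower with the ARID1A shRNA (30.2% of those tested), against 38.8% of all genes tested (13.4% higher and 25.4% lower).

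**Figure D2:**
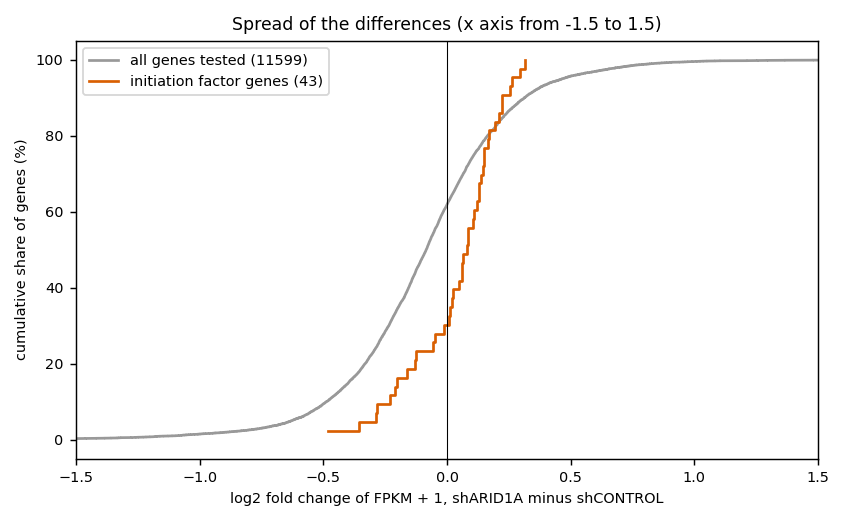
Cumulative share (%) of genes against log2 fold change of FPKM + 1, for the 43 initiation factor genes (orange) and all 11599 genes tested (grey). The curve of the initiation factors is steeper, spans -0.48 to 0.32 and crosses 0 at a lower share, since 13 of 43 lie below 0.

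In the scaffold group all 3 genes differed without overlap between the groups, 2 upwards and 1 downwards, where 38.8% of all genes did not overlap, and 1 of the 3 passed the test. Because their means differed in opposite directions, the 250 bases before the outermost RefSeq start of each are shown here (RefSeq, GRCh38.p14, written 5′ to 3′ on the gene's strand), with that of the cap-binding protein EIF4E for comparison. Capitals mark the E-box CACGTG, which reads the same on both strands and is a binding sequence of MYC, MAX and related factors. The windows lie at chr3:184314356-184314605 (plus strand), chr11:10808927-10809176 (minus), chr1:21176898-21177147 (minus) and chr4:98929134-98929383 (minus).
EIF4G1: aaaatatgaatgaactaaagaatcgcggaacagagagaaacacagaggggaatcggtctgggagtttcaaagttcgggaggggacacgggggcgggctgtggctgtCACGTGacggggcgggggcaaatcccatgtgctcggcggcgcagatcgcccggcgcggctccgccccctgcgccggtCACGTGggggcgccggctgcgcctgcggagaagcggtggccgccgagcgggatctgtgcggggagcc
EIF4G2: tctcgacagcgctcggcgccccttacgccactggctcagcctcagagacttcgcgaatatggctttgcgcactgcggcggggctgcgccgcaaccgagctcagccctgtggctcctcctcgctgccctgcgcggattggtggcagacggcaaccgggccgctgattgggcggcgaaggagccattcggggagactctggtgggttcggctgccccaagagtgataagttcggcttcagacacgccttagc
EIF4G3: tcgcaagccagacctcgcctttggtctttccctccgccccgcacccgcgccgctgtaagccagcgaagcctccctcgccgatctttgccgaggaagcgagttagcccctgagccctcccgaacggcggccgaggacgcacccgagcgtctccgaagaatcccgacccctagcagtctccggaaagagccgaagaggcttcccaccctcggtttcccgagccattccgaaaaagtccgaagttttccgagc
EIF4E: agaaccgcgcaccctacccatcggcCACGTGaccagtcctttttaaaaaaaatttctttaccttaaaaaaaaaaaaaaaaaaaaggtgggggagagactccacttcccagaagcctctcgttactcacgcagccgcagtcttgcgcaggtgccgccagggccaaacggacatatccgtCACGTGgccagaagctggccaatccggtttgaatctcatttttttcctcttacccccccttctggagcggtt
The E-box occurs 2 times in the EIF4G1 stretch, 2 times in that of EIF4E and 0 times in those of EIF4G2 and EIF4G3. Only the outermost start of each gene was searched, although RefSeq gave 3 promoter windows for EIF4G1 and 2 each for EIF4G2 and EIF4G3. A match is a description of letters and says nothing about binding in these cells.

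EIF4G2 (gene ID 1982), also known as DAP5 or p97, resembles the C-terminal part of eIF4G1, lacks its eIF4E-binding region and serves initiation that does not use eIF4E. It stood at 358, 358 and 349.8 FPKM with the control shRNA and at 421, 423 and 427 FPKM with the ARID1A shRNA. The values within each group were tight and the groups lay well apart. EIF4G2 rose by 19.3% in its mean, a log2 fold change of 0.25 (standard error 0.073, adjusted p = 0.0477 from limma). Blocking on the replicate number gave an adjusted p of 0.0612, and p ran from 0.0138 to 0.194 over all alternatives, above the threshold when any 1 library other than shARID1A replicate 3 was left out. It also missed the threshold with no filter (0.0824), quantile normalization (0.0796), no mean-variance trend (0.0836) and robust eBayes (0.0519). The log2 fold change itself lay between 0.23 (quantile normalization) and 0.36 (voom).

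EIF4G1 (gene ID 1981), the main scaffold that ties eIF4E, eIF4A, eIF3 and the poly(A)-binding protein together, stood at 288, 289 and 295 FPKM and 328, 353 and 338 FPKM. All shARID1A values were above all shCONTROL values, but the test missed the threshold (log2 fold change 0.22, interval 0.05 to 0.40, adjusted p = 0.0788). It passed with voom (0.0254) and after adjustment for gene length, without (0.0415) and with the replicate block (0.0439). EIF4G3 (gene ID 8672), its less abundant paralog eIF4GII, stood at 25.8, 24.7 and 27.2 FPKM and 21.3, 19.1 and 22.8 FPKM, the other way round and again with no overlap (-0.29, interval -0.51 to -0.06, adjusted p = 0.0812). Without shARID1A replicate 3 its adjusted p was 0.0288. Of the summed FPKM of EIF4G1 and EIF4G3, EIF4G3 made up 8.23%, 7.88% and 8.44% with the control shRNA and 6.12%, 5.14% and 6.32% with the ARID1A shRNA. The exact permutation p (two-sided) of these shares was 0.1, the lowest possible here, and 0.3 adjusted over the 3 paralog shares compared.

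**Figure D3:**
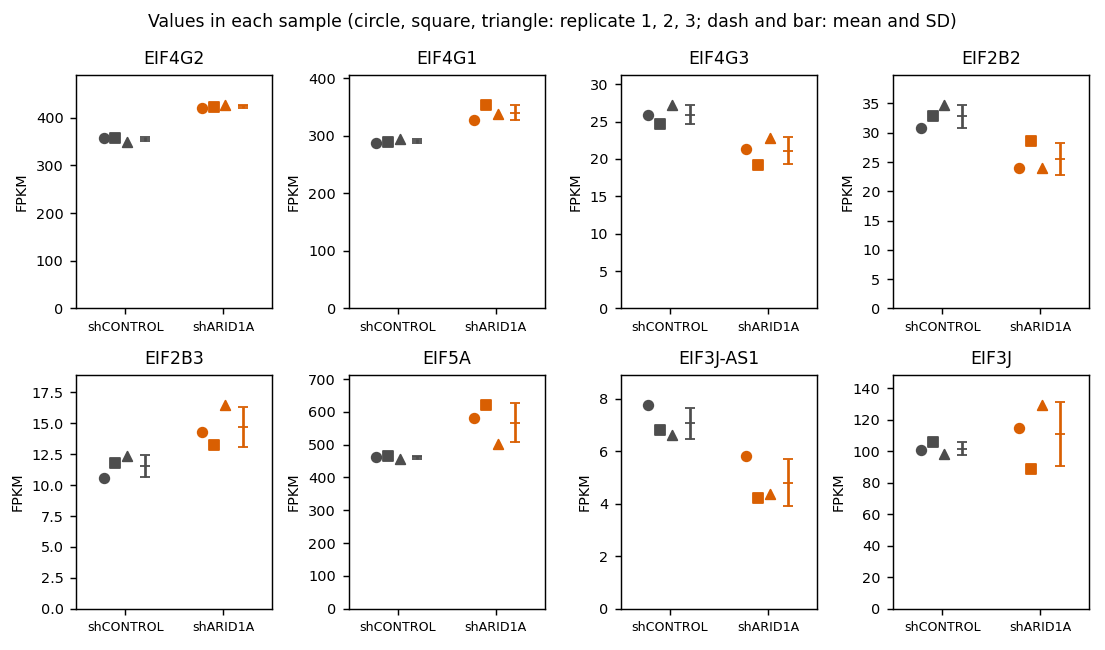
FPKM in each sample for 8 genes, with shCONTROL in grey and shARID1A in orange, replicates as circle, square and triangle, and mean ± SD beside them; each axis starts at 0. The shARID1A values lie above all shCONTROL values for EIF4G2, EIF4G1, EIF2B3 and EIF5A, below them for EIF4G3, EIF2B2 and EIF3J-AS1, and on both sides for EIF3J.

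Across the promoter windows the E-box was more frequent among initiation factor genes than among all genes, which is a count with no test. RefSeq windows of 300 bases (250 before and 50 after the outermost start) were at hand for 37 of the 43 members tested, not for EIF2S2, EIF3A, EIF3E, EIF3G, EIF3H and EIF3L. Some genes have windows at further starts, which were not searched. CACGTG occurred in 10 of the 37 (27.0%) and in 10.3% of the 9233 windows of all genes tested. The 10 were EIF1B, EIF2B3, EIF3F, EIF3K, EIF4A3, EIF4B, EIF4E, EIF4G1, EIF4H and EIF5A2. Of these 10, 0 passed the test, and their log2 fold changes ran from -0.28 to 0.32 with a median of 0.12. Of the 27 without the E-box, 2 passed the test, and their log2 fold changes ran from -0.48 to 0.29 with a median of 0.06. TGATGNAA, letters from the C/EBP-ATF element of stress-induced genes, occurred on either strand in 0 of the 37 windows and 1.59% of all, and TTCGCGC, an E2F element, in 1 (EIF3K) and 4.13%.

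The eIF2B subunits came next. Within this 5-part complex the means of the 3 regulatory subunits were lower and those of the 2 catalytic ones higher. Of the 5, 0 passed the threshold and 2 had an unadjusted p under 0.05 (limma), where 16.8% and 33.9% of all genes tested did. eIF2B is the exchange factor that reloads eIF2 with GTP. Its alpha, beta and delta subunits (EIF2B1, EIF2B2, EIF2B4) form the regulatory core that senses phosphorylated eIF2, and gamma and epsilon (EIF2B3, EIF2B5) form the catalytic part. EIF2B2 (gene ID 8892) stood at 30.8, 32.9 and 34.7 FPKM with the control shRNA and 24.0, 28.6 and 23.9 FPKM with the ARID1A shRNA. All shARID1A values were lower, and the log2 fold change of -0.35 (standard error 0.104) had an adjusted p of 0.05004, just above the threshold. With the replicate block it was 0.0372, and over the alternatives it ran from 0.0228 to 0.178. EIF2B1 and EIF2B4 stood at 37.3 ± 2.25 and 32.4 ± 2.14 FPKM and at 23.6 ± 1.88 and 20.1 ± 2.98 FPKM (SD, n = 3 per group, control first), with log2 fold changes of -0.20 and -0.23 and limma adjusted p of 0.169 and 0.224.

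EIF2B3 (gene ID 8891) stood at 10.6, 11.8 and 12.3 FPKM and at 14.3, 13.3 and 16.5 FPKM, higher in every shARID1A sample. Its log2 fold change was 0.32 (interval 0.06 to 0.58, adjusted p = 0.0902), and it passed after quantile normalization (0.04), with voom (0.0398) and after length adjustment with the replicate block (0.0275). EIF2B5, which holds the exchange activity and had the highest FPKM of the 5, stood at 39.2, 40.4 and 38.6 FPKM and 45.6, 39.0 and 40.9 FPKM, with overlap (0.08, adjusted p = 0.565). The summed FPKM of the 3 regulatory subunits over that of the 2 catalytic ones was 1.80, 1.81 and 1.91 with the control shRNA and 1.27, 1.57 and 1.32 with the ARID1A shRNA. The 2 groups of ratios did not overlap. This ratio was chosen after its values were seen and has no test.

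The eIF2 complex itself, the substrate of eIF2B, had 0 of 3 members past the threshold and 0 at an unadjusted p under 0.05. EIF2S2, the beta subunit and the highest of the 3, stood at 93.1, 95.9 and 86.5 FPKM with the control shRNA and 87.5, 78.6 and 99.9 FPKM with the ARID1A shRNA (-0.06, interval -0.30 to 0.19, adjusted p = 0.743). The shARID1A values lay on both sides of the shCONTROL values. EIF2S1, the alpha subunit that stress kinases phosphorylate, and EIF2S3, the gamma subunit that binds the tRNA, had log2 fold changes of 0.05 and -0.01, with intervals from -0.23 to 0.33 and from -0.27 to 0.25.

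Outside eIF2, EIF2A and EIF2D can also deliver initiator tRNA. EIF2A stood at 40.6, 39.3 and 37.3 FPKM and 45.4, 36.0 and 49.0 FPKM, with shARID1A replicate 2 below the other shARID1A samples (0.14, adjusted p = 0.458). EIF2D stood at 15.2 ± 0.455 and 15.5 ± 2.02 FPKM (adjusted p = 0.897, limma).

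All 12 eIF3 subunits tested had a higher mean with the ARID1A shRNA, by small amounts. Of these, 0 passed the test, 0 had an unadjusted p under 0.05 and 0 passed with voom. Their log2 fold changes ran from 0.02 (EIF3G) to 0.22 (EIF3B), with a median of 0.14. In 3 of the 12 (EIF3H, EIF3I and EIF3L) the groups did not overlap, where 38.8% of all genes tested did not (13.4% with shARID1A higher). EIF3G turned below 0 after quantile normalization and without shCONTROL replicate 3 or shARID1A replicate 2, and EIF3E and EIF3J without shARID1A replicate 3, so that 10 to 12 of the 12 were above 0 over the settings. EIF3B, a core subunit with an RNA recognition motif, stood at 106, 97.2 and 91.0 FPKM and 127, 116 and 101 FPKM, with an overlap of 1 sample (adjusted p = 0.182). Without shARID1A replicate 3 its adjusted p was 0.0388, and it was 0.0425 after length adjustment with the replicate block. EIF3L stood at 113, 114 and 108 FPKM and 120.5, 128 and 122 FPKM (0.15, interval -0.03 to 0.33, adjusted p = 0.215).

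Levels of the eIF3 subunits differed more from each other than between the groups. In each sample the FPKM of the highest was 3.49 to 4.97 times that of the lowest, although the proteins occur together in 1 complex. EIF3E was the highest, at 342, 337 and 335 FPKM with the control shRNA and 365, 297 and 404 FPKM with the ARID1A shRNA. The shARID1A values enclosed the shCONTROL values. EIF3H followed at 277 ± 4.85 and 301 ± 2.39 FPKM (SD, n = 3 per group). EIF3K, EIF3D, EIF3I, EIF3L, EIF3M, EIF3B, EIF3J, EIF3A, EIF3F and EIF3G came next in this order of means, from 176 down to 87.5 FPKM. The samples of EIF3E and EIF3H overlapped, as did those of EIF3K and EIF3D and of all neighbours from EIF3I down, while those of EIF3H and EIF3K and of EIF3D and EIF3I did not. EIF3C, a core subunit, was listed at 0 in 5 samples and at 0.0132 FPKM, 3 reads, in shARID1A replicate 2. EIF3C has a near-identical copy, EIF3CL, with which reads can be shared, so this level says nothing of the gene's use.

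**Figure D4:**
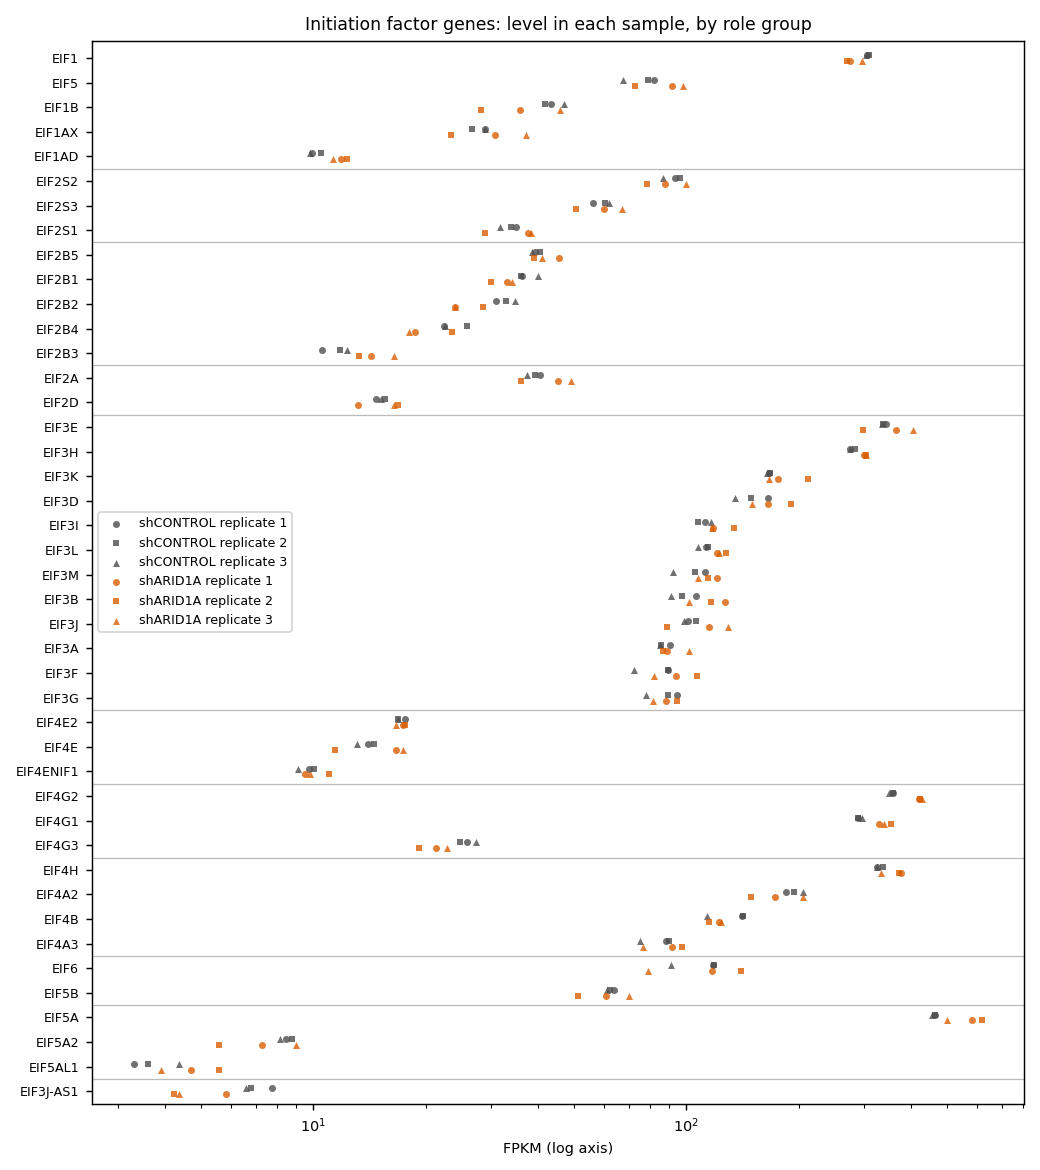
FPKM (log axis) of the 43 initiation factor genes tested in each of the 6 samples, grouped by role and ordered by mean within each group, with shCONTROL in grey and shARID1A in orange. Levels run from a mean of 4.25 FPKM (EIF5AL1) to 514 FPKM (EIF5A), and for most genes the groups overlap.

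The cap-binding proteins stood at low levels compared with the scaffold and the helicase cofactor. EIF4E (gene ID 1977), the cap-binding subunit of eIF4F, stood at 14.0, 14.5 and 13.1 FPKM with the control shRNA and 16.7, 11.4 and 17.4 FPKM with the ARID1A shRNA. The shARID1A values were above the shCONTROL values in replicates 1 and 3 and below them in replicate 2, and the log2 fold change was 0.10 (interval -0.25 to 0.46, adjusted p = 0.675). EIF4E2, the 4EHP protein that binds the cap without eIF4G and represses translation, stood at 17.6, 16.8 and 16.9 FPKM and 17.4, 17.6 and 16.6 FPKM, with the groups interleaved. EIF4ENIF1, the eIF4E transporter that brings eIF4E to P-bodies, stood at 9.62 ± 0.479 and 10.1 ± 0.792 FPKM. Their log2 fold changes of 0.01 and 0.06 had limma adjusted p-values of 0.956 and 0.708. EIF4E3 was below the minimum, with 0.324 to 0.661 FPKM.

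Among the 4 helicases and cofactors 0 passed, and 0 had an unadjusted p under 0.05. EIF4A2, the helicase paralog eIF4AII, stood at 185, 194 and 206 FPKM and 173, 149 and 205 FPKM (-0.16, interval -0.44 to 0.11, adjusted p = 0.378). It was lower in shARID1A replicates 1 and 2 than in all shCONTROL samples, and shARID1A replicate 3 lay among them. EIF4A1 was not analysed here, so the balance of the helicase paralogs was not compared. EIF4H, a stimulator of eIF4A and the highest of this group, stood at 324, 337 and 325 FPKM and 376, 371 and 332 FPKM, with 1 shARID1A sample among the shCONTROL values. EIF4B, a further stimulator with an RNA recognition motif, stood at 132 ± 16.3 and 120.4 ± 4.95 FPKM. EIF4A3, the helicase of the exon junction complex rather than of initiation, stood at 84.3 ± 7.88 and 88.4 ± 10.8 FPKM. The limma adjusted p-values of these 3 were 0.314, 0.437 and 0.738.

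Factors of start codon selection and subunit joining overlapped between the groups with few exceptions. EIF1 (gene ID 10209), which keeps scanning ribosomes from starting at wrong codons, stood at 306, 309 and 303 FPKM and 275, 269.5 and 295 FPKM. All shARID1A values were lower, and the difference did not pass (-0.13, interval -0.31 to 0.05, adjusted p = 0.277). Its paralog EIF1B stood at 43.2, 41.7 and 47.0 FPKM and 35.8, 28.2 and 45.9 FPKM (-0.28, adjusted p = 0.253, and 0.0224 without shARID1A replicate 3). EIF1B made up 12.4%, 11.9% and 13.4% of the summed FPKM of EIF1 and EIF1B with the control shRNA and 11.5%, 9.47% and 13.5% with the ARID1A shRNA (exact permutation test, two-sided p = 0.5, also 0.5 adjusted over the 3 shares).

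EIF1AD, which shares a domain with eIF1A, stood at 9.91, 10.5 and 9.83 FPKM and 11.8, 12.3 and 11.3 FPKM. Its groups did not overlap, and its adjusted p was 0.156. EIF5, the GTPase-activating protein of eIF2, stood at 76.0 ± 7.50 and 87.5 ± 13.1 FPKM and EIF1AX, the eIF1A protein encoded on the X chromosome, at 28.1 ± 1.30 and 30.4 ± 6.86 FPKM, with adjusted p-values of 0.327 and 0.728 (limma). EIF5B, the GTPase of subunit joining, stood at 63.9, 62.2 and 61.1 FPKM and 60.9, 51.4 and 70.2 FPKM, with the shARID1A values around the shCONTROL values (adjusted p = 0.8). EIF6, which keeps free large subunits from joining, stood at 118, 118 and 90.9 FPKM and 117, 140.3 and 79.0 FPKM (0.01, interval -0.45 to 0.47). The interval of EIF6 was the widest of the 43 members tested, with shARID1A replicate 2 the highest and shARID1A replicate 3 the lowest of the 6 samples. EIF1AY, a Y-linked gene, was not tested and is given no values.

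EIF5A had the highest mean FPKM of the members. The protein is modified with hypusine and acts mainly in elongation and termination, in spite of its name. EIF5A (gene ID 1984) stood at 463, 464 and 456 FPKM with the control shRNA and at 581, 619.8 and 501 FPKM with the ARID1A shRNA. All shARID1A values were higher, with a log2 fold change of 0.29 (interval 0.07 to 0.51) and an adjusted p of 0.0698 that missed the threshold. It passed in 6 of the alternatives, among them an equal FPKM sum per sample (0.0486), length adjustment (0.025) and leaving out shARID1A replicate 3 (0.00763).

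EIF5A2, the paralog known for amplification in some carcinomas, stood at 8.44, 8.78 and 8.16 FPKM and 7.30, 5.60 and 8.98 FPKM (-0.21, adjusted p = 0.365). Its share of the summed FPKM of both paralogs was 1.79%, 1.86% and 1.76% against 1.24%, 0.895% and 1.76% (exact permutation test, two-sided p = 0.2, 0.3 adjusted over the 3 shares). The shares overlapped through shARID1A replicate 3. EIF5AL1, a near-identical copy of EIF5A, stood at 3.76 ± 0.547 and 4.73 ± 0.838 FPKM (adjusted p = 0.237, limma). Reads can be shared with EIF5A, so the level of EIF5AL1 is uncertain.

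The 1 member called lower encodes no protein. EIF3J-AS1 (gene ID 645212), which RefSeq now names EIF3J-DT for divergent transcript, stood at 7.75, 6.82 and 6.61 FPKM with the control shRNA and at 5.82, 4.23 and 4.37 FPKM with the ARID1A shRNA. All shARID1A values lay below all shCONTROL values. It fell by 31.9% in its mean, a log2 fold change of -0.48 (standard error 0.134, adjusted p = 0.0435 from limma). With the replicate block the adjusted p was 0.0183, and over all alternatives it ran from 0.0183 to 0.159. Among the scalings it missed the threshold after upper quartile scaling (0.0505), quantile normalization (0.108), length adjustment (0.0607) and voom (0.0988). It also missed it with no filter (0.0885), and when any 1 shCONTROL library or shARID1A replicate 2 was left out (up to 0.159).

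EIF3J, the loosely bound eIF3 subunit transcribed from the same region in the other direction, stood at 101, 106 and 98.2 FPKM and 115, 88.8 and 129 FPKM (0.11, interval -0.20 to 0.41, adjusted p = 0.611). The shARID1A values of EIF3J lay above the shCONTROL values in replicates 1 and 3 and below them in replicate 2. The difference between the responses of the 2 genes was not tested. Whether the libraries keep the strand is unstated, so reads of overlapping transcripts cannot be told apart. The outermost RefSeq starts of both genes are separated by 223 bases, chr15:44536924-44537146 (GRCh38.p14), shown 5′ to 3′ on the strand of EIF3J because both transcripts lead away from it. It is 74.9% G and C and holds none of the 3 motifs.
EIF3J-AS1 to EIF3J: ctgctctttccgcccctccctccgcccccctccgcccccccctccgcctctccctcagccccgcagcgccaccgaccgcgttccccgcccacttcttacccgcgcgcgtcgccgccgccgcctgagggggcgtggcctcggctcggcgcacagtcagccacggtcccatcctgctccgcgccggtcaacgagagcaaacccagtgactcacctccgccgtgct
The antisense RNAs EIF1B-AS1 (0.182 to 0.419 FPKM) and EIF1AX-AS1 (0 to 0.613 FPKM) were below the minimum and not tested.

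In the members as in all genes, shARID1A replicates 2 and 3 deviated more from their group mean than the other 4 samples did. The SD of the members' log2 deviations from their group mean was 0.187 in shARID1A replicate 2 and 0.173 in replicate 3, against 0.0773 in replicate 1 and 0.0501 to 0.0921 in the shCONTROL samples. Over all genes it was larger in every sample, at 0.193, 0.231 and 0.133 in shARID1A replicates 2, 3 and 1 and 0.111 to 0.164 with the control shRNA. Of the 43 members, 21 were lowest in shARID1A replicate 2 (median gene length 3465 bases) and 17 highest there (1896 bases). In replicate 3 it was the reverse, with 21 highest (3879 bases) and 16 lowest (1776 bases). Across the 43 members, which are not independent replicates and share each library, Pearson's r between deviation and log2 gene length was -0.41 in replicate 2 and 0.371 in replicate 3. Over all 11599 genes it was -0.13 and 0.191. These deviations sum to 0 within the group, so values for replicates 2 and 3 are not separate observations.

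**Figure D5:**
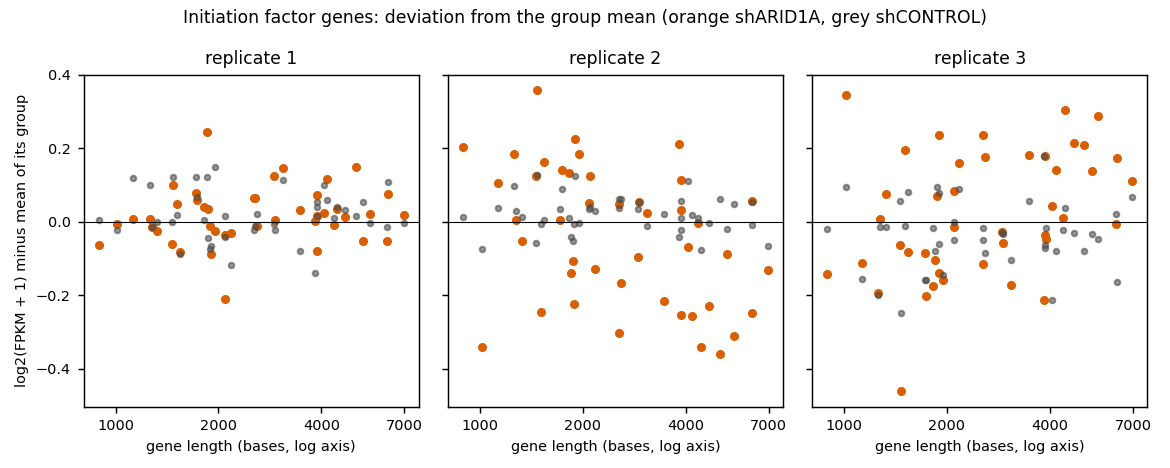
Deviation of log2(FPKM + 1) from the mean of its own group against gene length (bases, log axis) for the 43 initiation factor genes, 1 panel per replicate number, shARID1A in orange and shCONTROL in grey. Long genes such as EIF4E and EIF1AX lie below 0 in shARID1A replicate 2 and above it in replicate 3, while short genes such as EIF3K and EIF6 lie the other way. The pattern has exceptions. Among others, EIF1B (1012 bases), EIF3E (1508 bases) and EIF4A2 (1890 bases) go with the long genes. EIF5AL1 (3836 bases) and, with small deviations, EIF4G1 (6247 bases) go with the short ones.

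After subtracting the trend with gene length in each sample, 3 members were called higher (EIF4G1, EIF4G2 and EIF5A, 6.98%) and 0 lower, beside 8.92% and 7.93% of all genes. With the replicate block as well 5 were called higher (also EIF2B3 and EIF3B) and 1 lower (EIF3J-AS1), where 11.9% and 11.1% of all genes were called. This adjustment was chosen after the data were seen. The part of gene length in the differences between the groups was not tested otherwise.

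The other genes of translation were taken from a list of 44 regulators and of elongation, termination and recycling factors, of which 42 were tested. In this list 0 rose (2 with voom) and 4 fell (9.52%, near the 10.9% of all genes), and 10 had an unadjusted p under 0.05 (23.8%, against 33.9% of all genes), so the counts do not set the list apart. Those that fell were the initiation inhibitor PDCD4, the poly(A)-binding protein repressor PAIP2, the phosphatase subunit PPP1R15A and the elongation factor EEF1A2. The list's median log2 fold change was -0.03. PDCD4 (gene ID 27250), which binds eIF4A and blocks its helicase activity, stood at 10.9, 10.9 and 9.54 FPKM with the control shRNA and at 3.01, 1.89 and 5.13 FPKM with the ARID1A shRNA. It fell in all alternatives (log2 fold change -1.46, standard error 0.24, limma adjusted p = 0.00623, up to 0.0331).

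EEF1A2 (gene ID 1917), the tissue-restricted paralog of the tRNA-delivering factor eEF1A1, stood at 69.6, 67.9 and 71.7 FPKM and 33.2, 29.7 and 23.1 FPKM and also fell in all alternatives (-1.27, adjusted p = 0.00109, up to 0.00794). EEF1A1 stood at 1973 ± 93.8 and 2227 ± 149.5 FPKM, with a log2 fold change of 0.17 and an adjusted p of 0.207. PAIP2, which takes the poly(A)-binding protein off the mRNA, stood at 64.5, 64.3 and 63.2 FPKM and 38.4, 34.8 and 53.5 FPKM and fell (-0.61, limma adjusted p = 0.0269). That call was lost when any 1 library other than shARID1A replicate 3 was left out (adjusted p from 0.0546 to 0.1003), with no filter (0.064) and after length adjustment (0.0515). PPP1R15A encodes GADD34, a stress-induced subunit of a phosphatase that dephosphorylates eIF2. PPP1R15A stood at 52.2, 49.4 and 44.0 FPKM and 32.8, 33.9 and 38.8 FPKM and fell (-0.45, limma adjusted p = 0.023). The groups did not overlap. Leaving out shARID1A replicate 1, or either of shCONTROL replicates 1 and 2, ended the call (adjusted p up to 0.109).

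With the replicate block 7 of the list fell (16.7%, beside 15.5% of all genes), the further 3 being EIF4EBP1, MKNK1 and MKNK2. EIF4EBP1, the 4E-BP1 protein that keeps eIF4E from the scaffold, stood at 118, 122 and 99.9 FPKM and 80.9, 101 and 77.4 FPKM, with 1 shARID1A sample above the lowest shCONTROL sample (-0.39, adjusted p = 0.0646, 0.0208 with the block). MKNK1 and MKNK2, the kinases that phosphorylate eIF4E on the scaffold, stood at 11.99 ± 1.08 and 9.36 ± 0.828 FPKM and at 27.9 ± 2.55 and 22.6 ± 2.39 FPKM (limma adjusted p = 0.0785 and 0.111, 0.0456 and 0.0474 with the block). The poly(A)-binding protein PABPC1, which the scaffold EIF4G1 binds, stood at 1212 ± 14.7 and 1398 ± 34.4 FPKM (0.21, adjusted p = 0.0952, limma). Without shARID1A replicate 3, 3 of the list rose (7.14%) and 8 fell (19%), beside 9.62% and 19.7% of all genes.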

How the data were processed

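FPKM values of the 6 samples come from the authors' deposited table, which also gives gene lengths. HISAT2 2.0.5 and featureCounts 1.5.0-p1 are named per the submitters' processing notes, while the sources used here do not give settings, genome build or strandedness. Of 19814 named rows, the first 19421 share 1 denominator per sample (value times length sums to the same total), and 100% of their values come to whole reads (tolerance 0.01), which gave the assigned reads per sample. The other 393 rows were left out, of which 363 repeat genes listed before. No member is listed again among them, but they were not searched for further genes of this family. Of the gene names in the role groups, EIF2S3B, EIF3CL, EIF4E1B and EIF4A1 were not analysed here. Genes whose mean reached 1 FPKM were tested with limma 3.58.1 (R 4.3.3) on log2(FPKM + 1), with a mean-variance trend, no covariates and a threshold of 0.05, two-sided. The method was tested on simulated data with independent samples. Neither deviations shared by same-numbered samples nor trends with gene length were simulated. Members tested had at least 255 reads in every sample. Intervals are those of the model over samples. The gene family, lists, role groups and motifs were chosen with earlier results of these data known. Named with all values are called members, the member of each role group with the smallest p and the highest mean, and set paralog pairs. Others were added, such as EIF2B3 and EIF3L, whose groups do not overlap. The groups of EIF2B1, EIF3H and EIF3I do not overlap either, and these genes are given without all sample values. Samples of a group differed by more than counting noise (chi-square per degree of freedom 5.56 to 90.5). Same-numbered samples deviated together across genes (correlations 0.321, 0.187 and 0.315, all over 0.1), and differently numbered ones gave -0.302 to 0.0859. These correlations are not independent, since deviations sum to 0 within each group. No label states that the numbers are paired, and pairing was not tested. A replicate block was therefore run as an alternative only. The others were pseudocounts, filters, scalings, eBayes settings, voom on the recovered reads (TMM), gene length adjustment and leaving out each library. Sequences are from RefSeq (GRCh38.p14). Python 3.11.15, pandas 2.3.3 and matplotlib 3.10.9 were used.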

Additional observations from a re-analysis of the deposited data

How the results depend on the processing

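Counts of called members were small and moved with most settings. Members called higher, 1 as reported, numbered 0 with no filter, no mean-variance trend, robust eBayes or the replicate block, 2 with an equal FPKM sum or quantile normalization, 4 with voom, 3 with length adjustment, and 5 with length adjustment and the replicate block. Members called lower, 1 as reported, numbered 0 with no filter, upper quartile scaling, quantile normalization, voom or length adjustment, and 2 with a pseudocount of 5 FPKM, a minimum of 5 FPKM, an equal FPKM sum or the replicate block. Leaving out 1 library gave 0 to 3 in each direction, with 3 and 3 only without shARID1A replicate 3. The median log2 fold change of the members was 0.19 with voom and 0.16 with length adjustment, with or without the block, and 0.05 to 0.10 without 1 library. Of all genes, 587 to 3403 changed without 1 library (231 to 1116 higher, 356 to 2287 lower). Higher genes numbered 1137 with voom, 1035 with length adjustment and 1382 with the block as well, and lower genes 820 with a minimum of 5 FPKM and 831 after quantile normalization. Of the other translation genes, 2 rose with voom or length adjustment (with or without the block), 7 fell with the replicate block, and 0 to 3 rose and 2 to 8 fell without 1 library. No called value changed sign in any setting, and 34 of the 43 members passed in none of the 20 settings. Beside the calls named in the report, the replicate block changed no call of a member. The fold change of ARID1A lay between -1.59 and -1.51 without 1 library. The difference in the EIF4G3 share and the EIF5A2 share kept its sign in every setting run, and the EIF4A2 share was not run. The cause of these shifts was not tested.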
